A study of Mus musculus with 9 samples.

Results

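The genes described here encode the leukocyte integrins and CD44, adhesion receptors of the cell surface, and were taken by symbol from the deposited table, where all 10 of 10 listed genes were found among 28764 gene symbols. They are the alpha chains Itgam, Itgax, Itgal, Itga4, Itga6 and Itga9, the beta chains Itgb1, Itgb2 and Itgb7, and Cd44. RNA was measured in phagocytes sorted from the peritoneal wall of Cx3cr1gfp/+ Ccr2rfp/+ mice, an F1 cross of reporter lines from Jackson Laboratories, so every cell carried one reporter allele at Cx3cr1 and one at Ccr2. The mice had received 50 µg of Cascade Blue dextran intravenously 1 day earlier and were perfused, and the tissue was digested for 20 minutes. Their age is not given in the sources used here.

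All cells were positive for CD11b, the product of Itgam, and negative for Ly6G. Double-negative cells lacked both reporters and MHC class II but held dextran. They were 85 to 90% of the gate, and the labels count them as most of the sessile RTM. CCR2-RFP cells, 10 to 15% of the gate and MHC class II positive, are called migratory tissue monocytes by the labels. The CX3CR1-GFP cells, at 0.5 to 1.5% of the gate, were MHC class II positive too and are counted as sessile RTM. Each population had 3 libraries, named here by their sort labels 1, 2A and 2B. The design text has 3 mice, and the sort labels were read as animals, which the labels do not state outright. The p-values rest on 1 estimate of spread shared by all 9 libraries. The main fit did not pair libraries by sort label, and such a block was run as an alternative.

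Integrins are pairs of an alpha and a beta chain that hold a cell to other cells or to matrix, and they are switched between bent and extended forms by signals from inside the cell. The beta-2 chain (CD18) pairs in leukocytes with the CD11 alpha chains and serves firm adhesion, migration and complement uptake. Alpha-4 pairs with beta-1 or beta-7 and binds VCAM-1 and fibronectin or MAdCAM-1, alpha-6 binds laminins, and alpha-9 with beta-1 binds tenascin and VCAM-1. CD44 is no integrin. It is a main receptor of leukocytes for hyaluronan, a sugar polymer of the matrix that is abundant in serous linings.

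Values are in TPM (transcript abundance relative to the library total, scaled for transcript length and library), which allows levels of different genes to be set side by side. Over all listed genes CX3CR1-GFP libraries held 278579 to 301604 TPM, double-negative ones 324050 to 357087 TPM and CCR2-RFP ones 356787 to 382828 TPM. The listed total thus differed by population and was lowest in CX3CR1-GFP cells. The main fit did not rescale for it, and rescalings were run as alternatives. The depth of sequencing is unknown, since TPM keeps no read counts. Ccr2 was 95.4 to 115 TPM in libraries titled CCR2-RFP against 1.65 to 6.68 TPM in the 6 others, and Cx3cr1 was 4.13 to 16.4 TPM in CX3CR1-GFP libraries and listed at 0 in the 6 others. The titles were followed for this reason among others, since another label field names the other reporter population for 6 of 9 samples. Macrophage and monocyte markers (8 of 8 in the table) summed to 1488 to 2786 TPM over the 9 libraries. Skeletal muscle markers (6 genes) summed to 807 TPM in CCR2-RFP 2A and 1383 TPM in CX3CR1-GFP 2A, against 33.1 to 292 TPM in the 7 other libraries.

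Itgam, Itgax, Itgb2, Itga4, Itgb7 and Cd44 were higher, and Itga9 lower, in CCR2-RFP cells than in either sessile population. Against double-negative cells, 7 of the 10 genes were higher, 1 was lower and 2 did not pass, at adjusted p below 0.05 in limma, where 24.8% of the 10136 genes tested were called (14.9% higher and 9.88% lower). Between CX3CR1-GFP and double-negative cells 1 of 10 genes was called, lower, where 2.77% of genes tested were called (1.61% lower). In CX3CR1-GFP against CCR2-RFP cells 2 were higher, 6 were lower and 2 did not pass, where 26.3% of all genes were called (8.96% higher and 17.3% lower). These 3 comparisons share libraries in pairs and are not independent of one another. Itgb7 reached the filter of 1 TPM in at least 3 libraries only through CCR2-RFP cells, where it was high, and Itgax and Itgal passed it with 4 and 5 libraries, so the counts describe these genes and support nothing beyond them.

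**Figure D1:**
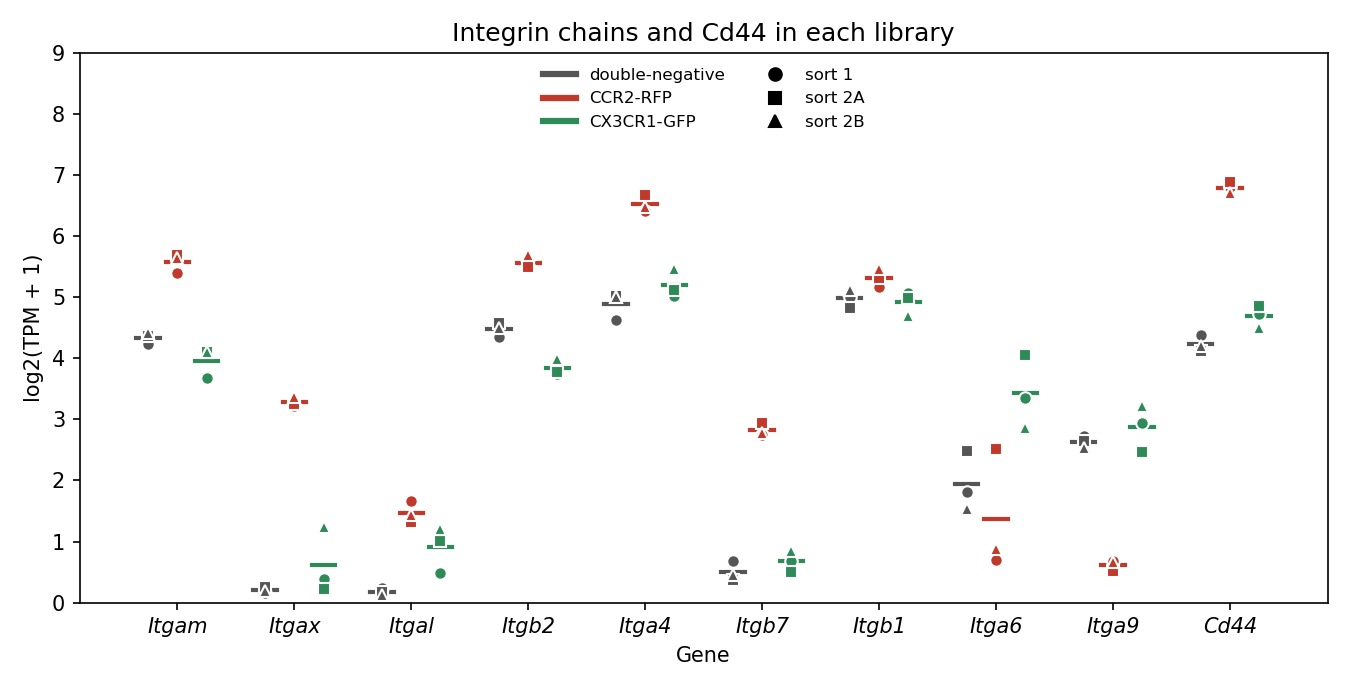
Expression of the 10 genes by library, plotted as log2(TPM + 1) vertically, with genes on the horizontal axis; colours mark the 3 populations, marker shapes the sort labels, and bars the mean of 3 libraries. Cd44 lies at 103 to 117 TPM in CCR2-RFP libraries and at 16.5 to 28.0 TPM in the 6 others, while Itgb1 lies between 24.9 and 43.0 TPM in all 9.

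Itgam encodes alpha-M, which with beta-2 forms Mac-1, a receptor for the complement fragment iC3b, fibrinogen and ICAM-1. It was 41.1, 50.6 and 49.2 TPM for CCR2-RFP cells of sorts 1, 2A and 2B, in which order all values follow. Double-negative cells had 17.9, 19.5 and 20.4 TPM, and CX3CR1-GFP cells 11.8, 16.1 and 16.1 TPM. All CCR2-RFP libraries stood above all others. Those of the 2 sessile populations did not overlap either, as for 21.1% of all genes tested, and their difference did not pass (log2 fold change -0.38, adjusted p = 0.305). On the log2(TPM + 1) scale, which understates changes of low genes, Itgam was 1.24 higher in CCR2-RFP cells than in double-negative ones (SE 0.164, adjusted p = 0.000322), and CX3CR1-GFP cells were 1.62 lower than CCR2-RFP cells (log2 fold change -1.62, adjusted p = 6.37e-05). Since the gate required surface CD11b in every population, its presence is set by the sort, and only the differences in level among positive cells are a measurement. As in all sorted bulk samples, fewer expressing cells and less RNA per cell cannot be told apart.

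Itgb2 encodes the shared beta-2 chain. Its values were 44.6, 44.0 and 50.5 TPM in CCR2-RFP libraries, 19.5, 22.8 and 21.7 TPM in those of double-negative cells and 12.5, 12.7 and 14.9 TPM in those of CX3CR1-GFP cells. No library of one population reached into another. Itgb2 was 2.18-fold higher in mean TPM in CCR2-RFP cells than in double-negative ones (log2 fold change 1.09, SE 0.141, adjusted p = 0.000282) and 3.47-fold higher than in CX3CR1-GFP cells (adjusted p = 2.13e-05 for CX3CR1-GFP against CCR2-RFP). It is also the 1 gene called between the sessile populations, at 13.4 ± 1.34 TPM in CX3CR1-GFP against 21.3 ± 1.68 TPM in double-negative cells (SD, n = 3; log2 fold change -0.64, limma adjusted p = 0.0428). That call rested close to the threshold: it was lost with the sort label as a replicate block (adjusted p = 0.0590), after each of the 3 rescalings (0.0725 to 0.0960) and without any 1 library but CX3CR1-GFP 2B (0.0624 to 0.153), over a range of 0.0255 to 0.329.

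Itgax encodes alpha-X (CD11c), which forms a further complement receptor with beta-2 and is widely used as a marker of dendritic cells. It was 8.31, 8.58 and 9.34 TPM in CCR2-RFP libraries, 0.113, 0.195 and 0.138 TPM in those of double-negative cells and 0.312, 0.168 and 1.35 TPM in those of CX3CR1-GFP cells. Among the 10 genes this was the widest difference of means on the log2 scale. The rise over double-negative cells was 3.08 (SE 0.260, adjusted p = 1.97e-05), and CX3CR1-GFP cells were lower than CCR2-RFP cells by 2.67 on that scale (log2 fold change -2.67, adjusted p = 5.25e-05). CX3CR1-GFP 2B stood apart from the other 2 libraries of its population by its higher value. Between the sessile populations the difference was 0.42, with a 95% interval of -0.16 to 1.00 that leaves a small rise or fall possible (adjusted p = 0.505).

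The chain of LFA-1, the receptor of leukocytes for ICAM-1, is encoded by Itgal. It was low throughout, at 2.18, 1.49 and 1.70 TPM in CCR2-RFP libraries, 0.176, 0.124 and 0.0841 TPM in those of double-negative cells and 0.403, 1.02 and 1.31 TPM in those of CX3CR1-GFP cells. CCR2-RFP cells lay above double-negative cells without overlap (log2 fold change 1.30, SE 0.224, adjusted p = 0.00174). CX3CR1-GFP libraries lay between, and neither of their differences passed, at 0.73 against double-negative cells (95% interval 0.23 to 1.23, adjusted p = 0.137) and -0.57 against CCR2-RFP cells (-1.07 to -0.07, adjusted p = 0.0893). Markers of T and NK cells, lymphocytes rich in LFA-1, summed to 3.26 to 13.0 TPM in CCR2-RFP libraries, 2.05 to 2.79 TPM in those of double-negative cells and 2.54 to 12.1 TPM in those of CX3CR1-GFP cells over 10 genes. Lck, Ncr1, Nkg7 and Gzma of that list were at 0 in every double-negative library. Cd4 was 0.783 to 1.03 TPM in those libraries and 0.0473 to 0.104 TPM in CCR2-RFP ones, Cd3d overlapped between them, and the list's part in the Itgal values was not tested.

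The make-up of the beta-2 family was read from TPM. The shares and ratios rest on the Itgam level, which is uncertain, since Gm49368 shares 68.7% of its exon bases on the same strand. Itgam, Itgax, Itgal and Itgad, the alpha chains known to pair with beta-2, together came to 18.2 to 20.7 TPM in double-negative, 51.6 to 60.7 TPM in CCR2-RFP and 12.5 to 18.8 TPM in CX3CR1-GFP libraries. Per unit of Itgb2 that was 0.919 ± 0.0444 in double-negative cells, 1.24 ± 0.120 in the CCR2-RFP and 1.21 ± 0.186 in the CX3CR1-GFP population (SD, n = 3). Alpha chain RNA thus lay close to that of the shared beta chain in each library, from 0.870 to 1.38 parts per part. Itgam made up 98.5 ± 0.171% of the alpha chain RNA in double-negative cells and 81.6 ± 1.87% in CCR2-RFP cells, where Itgax took 15.3 ± 1.02%. CX3CR1-GFP cells had 91.0 ± 4.57% Itgam, and their Itgax share ran from 0.970% in sort 2A to 7.20% in sort 2B. No test was made on these shares.

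**Figure D2:**
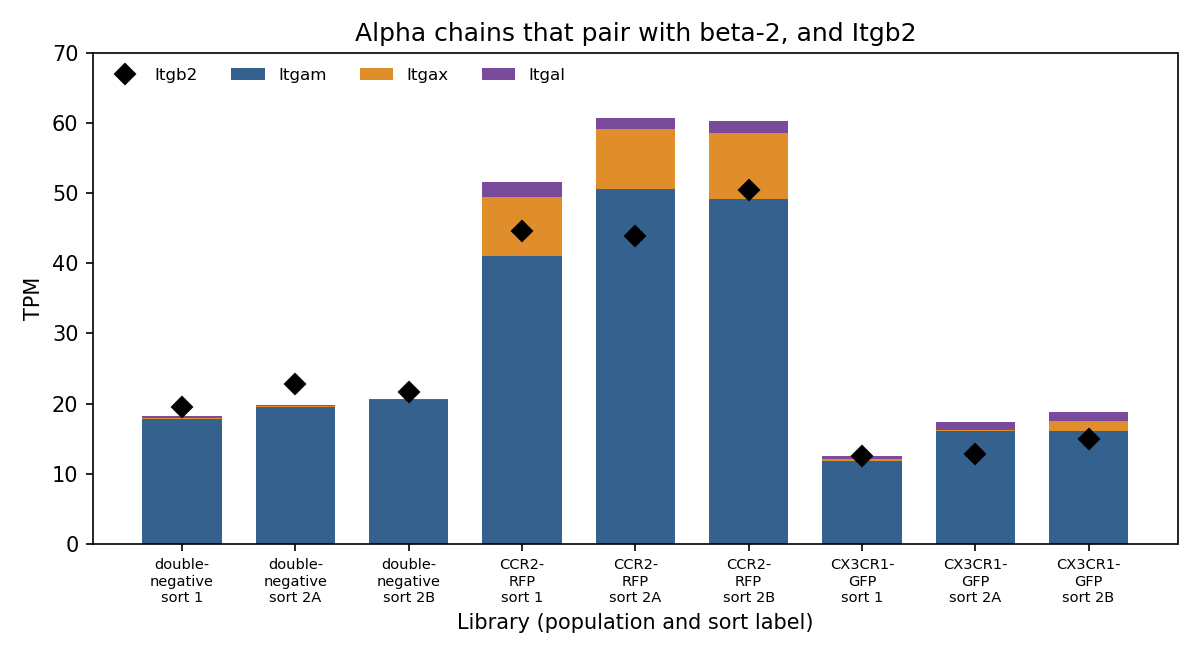
Stacked bars give the TPM of Itgam, Itgax and Itgal in each library (horizontal axis, population and sort label) and black diamonds the TPM of Itgb2, both on a linear axis from 0. The alpha chains sum to 51.6 to 60.7 TPM in CCR2-RFP libraries, with a visible Itgax layer of 14.1 to 16.1%, and to no more than 20.7 TPM elsewhere.

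Itgam and Itgax are neighbours on chromosome 7 of mm10, both on the plus strand, at 128062640 to 128118491 and 128129547 to 128150657, with 11055 bases between them in GENCODE M21. Itgal lies apart on the same chromosome at 127296260 to 127335138 and Itgb2 on chromosome 10 at 77530252 to 77565708. Gm49368, annotated on the strand of Itgam, shares 68.7% of the exon bases of Itgam and is not among the gene symbols listed by the authors. Whether the authors' counting set reads of the 2 models apart is not given, so the Itgam level is uncertain. The 250 bases upstream of the RefSeq start (GRCm38.p6, the assembly of mm10) are shown for both neighbours, because they rose together in CCR2-RFP cells and lie side by side. Capitals mark GAGGAA, on either strand, the purine-rich core bound by PU.1, a transcription factor of myeloid cells.
Itgam, chr7:128062390-128062639, plus strand: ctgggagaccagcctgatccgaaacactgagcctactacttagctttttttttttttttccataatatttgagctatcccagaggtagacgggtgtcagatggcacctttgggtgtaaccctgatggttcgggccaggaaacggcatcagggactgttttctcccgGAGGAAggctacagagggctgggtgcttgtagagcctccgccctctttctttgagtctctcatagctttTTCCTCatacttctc
Itgax, chr7:128129300-128129549, plus strand: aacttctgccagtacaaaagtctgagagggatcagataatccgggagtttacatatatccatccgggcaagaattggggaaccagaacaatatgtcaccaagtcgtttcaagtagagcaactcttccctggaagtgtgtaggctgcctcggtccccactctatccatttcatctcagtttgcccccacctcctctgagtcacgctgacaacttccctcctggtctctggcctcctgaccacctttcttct

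The Itgam sequence holds 2 matches, which begin 84 bases (plus strand) and 15 bases (minus strand, read as TTCCTC) before the start, and the Itgax window holds none. Of the 7 genes with a sequence, Itgb1 and Cd44 hold GAGGAA too, and Itga4, Itga9 and Itgb7 do not. The Itga9 window, at 118711442 to 118711691, lies inside the GENCODE M21 span of the gene, which starts at 118606690. It therefore does not describe the promoter at the start of that span. Of 32851 RefSeq promoter windows of this length, 23.3% hold GAGGAA on either strand. GGGCGG, the GC box core, is in Itgam, Itga4 and Itgb1 and in 32.7% of all windows, and TATAAA, the TATA box core, is in none of the 7 and in 12.4% of all windows. A match is a run of letters and no measure of binding. Promoter sequences were matched for 7 of the 10 genes.

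Itga4 encodes alpha-4, the chain of VLA-4 with beta-1 and of LPAM-1 with beta-7. It was among the most abundant members in every population, at 84.5, 101 and 88.6 TPM in CCR2-RFP libraries, 23.8, 31.6 and 31.0 TPM in those of double-negative cells and 31.5, 33.7 and 43.0 TPM in those of CX3CR1-GFP cells. The CCR2-RFP libraries stood well apart, and those of the sessile populations overlapped. Against double-negative cells Itga4 rose 3.17-fold in mean TPM (log2 fold change 1.64, SE 0.169, adjusted p = 6.01e-05), and it was 2.54-fold higher in CCR2-RFP than in CX3CR1-GFP cells (adjusted p = 0.000274). Itga4 is on chromosome 2 at 79255426 to 79333123, plus strand, and shares 8.04% of its exon bases with Cerkl on the opposite strand, which averaged 0.572 TPM. Use of strand in the counting is not given in the sources used here.

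Its beta partners differed from each other. Itgb7, which pairs with alpha-4 for binding to MAdCAM-1 of gut vessels, was 5.72, 6.66 and 5.88 TPM in CCR2-RFP libraries, 0.597, 0.296 and 0.367 TPM in those of double-negative cells and 0.611, 0.408 and 0.801 TPM in those of CX3CR1-GFP cells. It was 14.5-fold higher in mean TPM in CCR2-RFP cells than in double-negative ones (log2 fold change 2.32, SE 0.192, adjusted p = 1.74e-05) and 10.0-fold higher than in CX3CR1-GFP cells (adjusted p = 3.06e-05). The sessile populations overlapped, with a difference of 0.18 (95% interval -0.25 to 0.60). Mast cells also use beta-7, and 7 mast cell markers summed to 6.83 to 34.2 TPM in CCR2-RFP libraries, 0.929 to 7.30 TPM in those of double-negative cells and 0.0944 to 4.25 TPM in those of CX3CR1-GFP cells. By sort these sums were 10.8, 34.2 and 6.83 TPM in CCR2-RFP libraries, where Itgb7 was 5.72, 6.66 and 5.88 TPM. In double-negative 2B the sum was 7.30 TPM and Itgb7 was 0.367 TPM. Ms4a2 of the list was at no more than 0.163 TPM in any library. The part of mast cells in the Itgb7 values was not tested.

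Itgb1, the beta chain shared by most matrix-binding integrins, was the most even of the 10 genes, at 34.9, 38.8 and 43.0 TPM in CCR2-RFP libraries, 30.9, 27.4 and 33.7 TPM in those of double-negative cells and 32.5, 30.7 and 24.9 TPM in those of CX3CR1-GFP cells. CCR2-RFP libraries were the highest, without overlap, which was so for 42.7% of all genes tested against double-negative and 39.4% against CX3CR1-GFP cells. Neither difference passed, at 0.33 over double-negative cells (95% interval -0.02 to 0.68, adjusted p = 0.161) and -0.40 for CX3CR1-GFP against CCR2-RFP cells (-0.74 to -0.05, adjusted p = 0.0890). Between the sessile populations the difference of -0.07 (-0.41 to 0.28) turned its sign under quantile normalization and under rescaled TPM. With Itgb1 nearly level and Itga4 raised, Itga4 came to 2.36 ± 0.277 parts per part of Itgb1 in CCR2-RFP cells, against 0.948 ± 0.194 in double-negative and 1.26 ± 0.407 in CX3CR1-GFP cells. Itgb7 was 15.8 ± 1.84 parts per 100 of Itgb1 in CCR2-RFP cells, 1.37 ± 0.488 in double-negative cells and 2.14 ± 0.975 in CX3CR1-GFP cells.

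Itga9, the alpha-9 chain, ran the other way. It was 0.599, 0.425 and 0.593 TPM in CCR2-RFP libraries, 5.61, 5.22 and 4.76 TPM in those of double-negative cells and 6.65, 4.52 and 8.29 TPM in those of CX3CR1-GFP cells. Every library of the sessile populations lay above every CCR2-RFP library. The fall against double-negative cells was 9.64-fold in mean TPM (log2 fold change -2.01, SE 0.219, adjusted p = 8.74e-05), and CX3CR1-GFP cells were 12.0-fold higher than CCR2-RFP cells (2.25, SE 0.219, adjusted p = 5.16e-05). The sessile populations overlapped (0.24, 95% interval -0.24 to 0.73, adjusted p = 0.676). Alpha-9 is the closest relative of alpha-4 in sequence, as is known, and per 100 parts of Itga4 there were 0.600 ± 0.156 parts of Itga9 in CCR2-RFP, 18.5 ± 4.42 in double-negative and 17.9 ± 4.03 in CX3CR1-GFP cells. Itga9 spans 118606690 to 118901003 of chromosome 9, plus strand.

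The laminin receptor chain gene Itga6 was highest in CX3CR1-GFP cells, at 9.25, 15.6 and 6.28 TPM, against 2.49, 4.59 and 1.88 TPM in double-negative cells and 0.630, 4.69 and 0.831 TPM in CCR2-RFP cells. In each population the library of sort 2A was the highest. The CX3CR1-GFP libraries overlapped neither other population, and CCR2-RFP and double-negative libraries overlapped each other. Itga6 was called higher in CX3CR1-GFP than in CCR2-RFP cells (2.06, SE 0.484, adjusted p = 0.0103), but not with sort label 1 (0.120) or 2B (0.0655) left out; with 2A left out the adjusted p was 0.00143. Against double-negative cells the difference of 1.49 did not pass (95% interval 0.41 to 2.56, adjusted p = 0.165), and it passed with the sort label as a replicate block (adjusted p = 0.0228). Skeletal muscle markers moved with Itga6 in part: all 6 are above 1 TPM on average in each population, with sums of 38.3, 807 and 33.1 TPM in CCR2-RFP libraries, 224, 292 and 240 TPM in those of double-negative cells and 236, 1383 and 168 TPM in those of CX3CR1-GFP cells. Their part in the Itga6 values was not tested.

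Cd44 showed the smallest adjusted p of the 10 genes in both comparisons with CCR2-RFP cells. Its values were 111, 117 and 103 TPM in CCR2-RFP libraries, 20.0, 16.5 and 17.4 TPM in those of double-negative cells and 25.6, 28.0 and 21.7 TPM in those of CX3CR1-GFP cells. The 3 populations did not overlap. Cd44 was 6.15-fold higher in mean TPM in CCR2-RFP cells than in double-negative ones (log2 fold change 2.56, SE 0.145, adjusted p = 2.94e-06) and 4.39-fold higher than in CX3CR1-GFP cells (adjusted p = 7.79e-06). CX3CR1-GFP cells were 0.46 above double-negative cells (95% interval 0.14 to 0.78), which did not pass (adjusted p = 0.150), and 21.1% of all genes tested had libraries that did not overlap in that comparison. The gene lies on the minus strand of chromosome 2 at 102811141 to 102901665. Its upstream window is shown beside those of Itgam and Itgax because Cd44 gave the highest TPM of the 10 genes, with GAGGAA again in capitals.
Cd44, chr2:102901666-102901915, minus strand: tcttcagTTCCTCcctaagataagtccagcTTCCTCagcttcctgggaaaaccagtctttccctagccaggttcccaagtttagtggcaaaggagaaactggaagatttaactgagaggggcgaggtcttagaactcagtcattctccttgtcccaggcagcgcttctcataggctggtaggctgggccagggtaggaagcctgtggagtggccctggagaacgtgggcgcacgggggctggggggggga

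Both matches in the Cd44 window are on the strand opposite to transcription and begin 243 and 220 bases before the start.

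**Figure D3:**
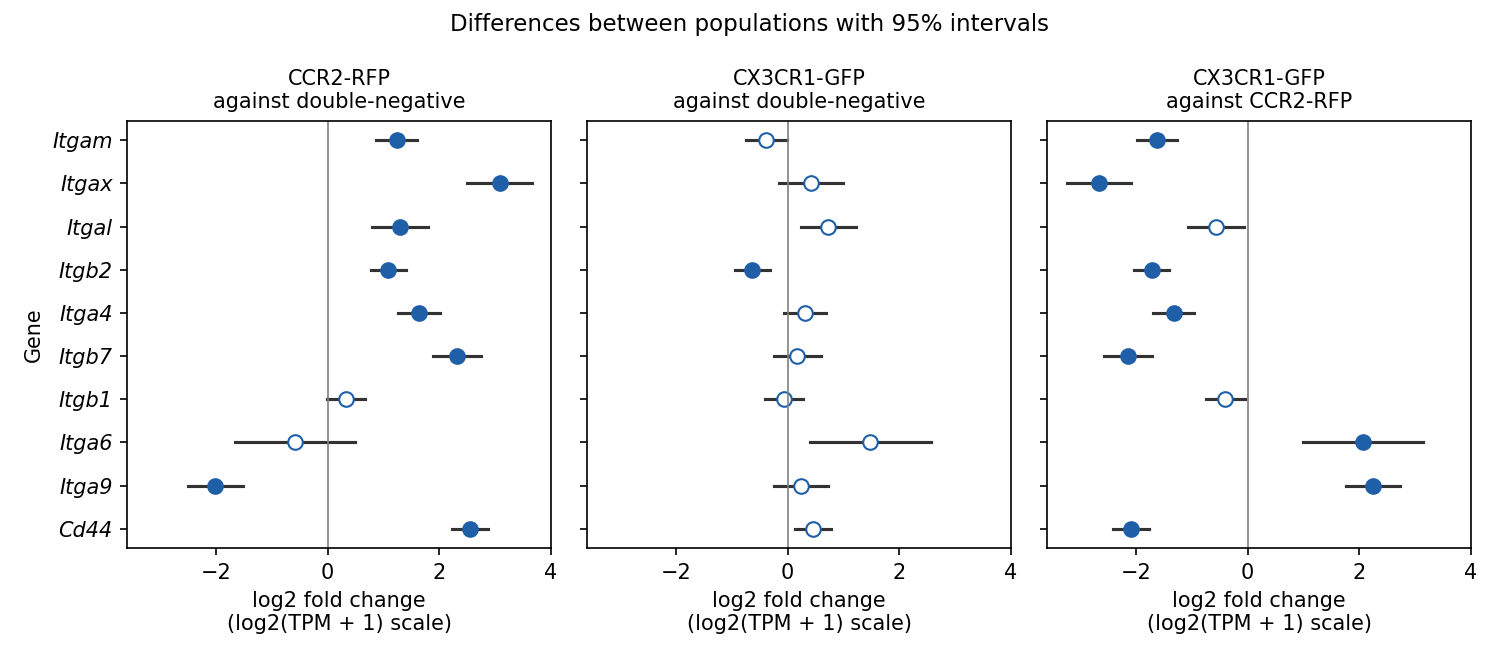
Log2 fold changes on the log2(TPM + 1) scale (horizontal axis) for each gene (vertical axis) in the 3 comparisons; lines are 95% intervals from limma, filled points are called at adjusted p below 0.05 and open points are not. Between CX3CR1-GFP and double-negative cells Itgb2 alone is filled, at -0.64.

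The order of levels changed between populations. In double-negative cells Itgb1 (30.7 ± 3.18 TPM) and Itga4 (28.8 ± 4.33 TPM) led and overlapped, followed by Itgb2, Itgam and Cd44, each of which overlapped its neighbour in that order. CCR2-RFP cells had Cd44 first (110 ± 7.03 TPM) and Itga4 second (91.4 ± 8.59 TPM), without overlap, then Itgam and Itgb2, which overlapped, and Itgb1. In CX3CR1-GFP cells Itga4 (36.0 ± 6.12 TPM), Itgb1 (29.4 ± 3.99 TPM) and Cd44 (25.1 ± 3.21 TPM) led, each overlapping the next. Itga9 was last in CCR2-RFP cells, without overlap. Itgal was last in double-negative and Itgb7 last in CX3CR1-GFP cells, each overlapping Itgax, the next above it. The sum of the 10 genes was 121 to 131 TPM in double-negative, 131 to 143 TPM in CX3CR1-GFP and 333 to 373 TPM in CCR2-RFP libraries.

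Across the 9 libraries, which share the 3 populations as their main source of variation, log2 values of Itgam and Itgb2 had a Pearson r of 0.974, and those of Itgax and Itgb7 of 0.987. Itga9 ran opposite to Cd44 (r = -0.955). For the 3 members with the widest range between population means, the genes of most similar pattern over 9 libraries were Clec4b1 (r = 0.993), Wnt11 (0.992) and Fgr (0.992) for Itgax. For Cd44 Arpc2 (0.996) and Ezr (0.995) were among them, and for Itgb7 they were Ywhaz, Rab11fip1 and Pira2 (0.994 each). These values describe likeness in a set of 9 points and carry no test.

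Further adhesion genes were read from 9 lists with 123 genes, of which 78 passed the filter. In CCR2-RFP against double-negative cells 32 of the 78 were higher and 14 lower, where 14.9% and 9.88% of all genes tested were, with a median log2 fold change of 0.45 against 0.09 over all genes tested and 1.27 over the 10 genes above. Between the sessile populations 4 were higher in CX3CR1-GFP cells and 1 was lower, where 1.16% and 1.61% of all genes were (median 0.06, against -0.03 over all genes). In CX3CR1-GFP against CCR2-RFP cells 15 were higher and 30 lower, where 8.96% and 17.3% of all genes were (median -0.36, against -0.11). Under all 3 rescalings 36 of 46, 5 of 5 and 31 of 45 calls were kept in these comparisons, and no call turned its sign. Of the 78 genes, Fgr and Itga2 passed the filter through CCR2-RFP libraries alone and Vcam1 through CX3CR1-GFP libraries alone, so the counts are a description.

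**Figure D4:**
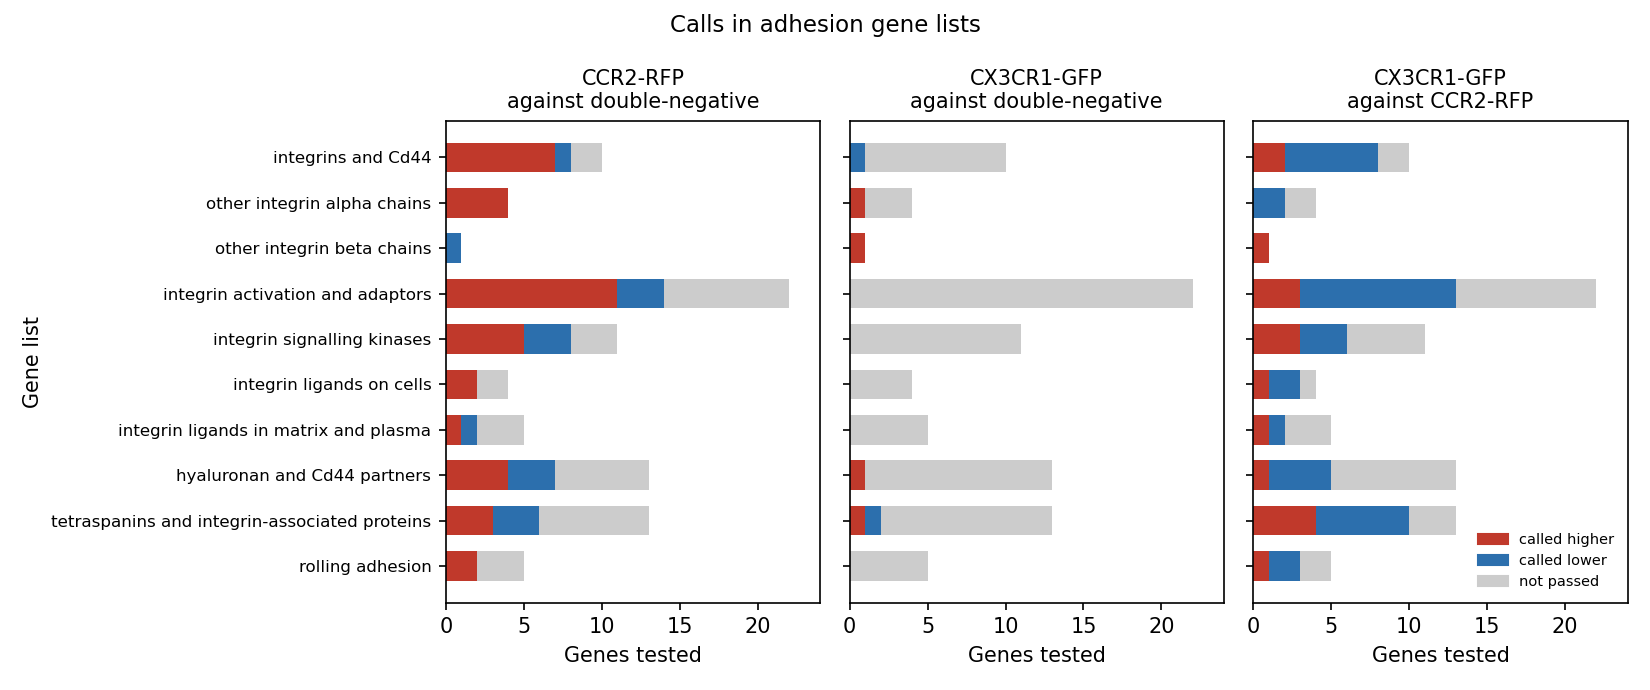
Number of genes tested (horizontal axis) in each adhesion list (vertical axis), split by call in the 3 comparisons: higher (red), lower (blue) or not passed (grey). Most bars between CX3CR1-GFP and double-negative cells are grey, with 4 higher and 1 lower among the 78 genes outside the top row.

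Of 12 other alpha chains 4 were tested, and all 4 were called higher in CCR2-RFP cells than in double-negative ones, where 14.9% of all genes were. Itgav, a chain of receptors for vitronectin and latent TGF-beta, was 12.0 ± 2.51 TPM in CCR2-RFP cells and 2.88 ± 0.850 TPM in double-negative ones (adjusted p = 0.000302). CX3CR1-GFP cells were higher than double-negative cells as well, at 9.35 ± 1.79 TPM (adjusted p = 0.00990, lost with any sort label left out, up to 0.133). Itga5, the fibronectin receptor chain, was 12.7 ± 5.89 against 3.42 ± 1.13 TPM (adjusted p = 0.00302), and the collagen receptor chains Itga2, which passed the filter only through CCR2-RFP libraries, and Itga1 rose to 1.97 ± 0.581 and 1.92 ± 0.509 TPM (adjusted p = 0.000841 and 0.0102, the call of Itga1 lost with any sort label left out, up to 0.0927). Of 5 other beta chains Itgb5, a partner of alpha-V, was the 1 tested and differed in every comparison. It was 7.90, 11.9 and 7.87 TPM in CX3CR1-GFP, 1.87, 1.85 and 2.07 TPM in double-negative cells and 0.212, 0.404 and 0.0932 TPM in CCR2-RFP cells. The 3 populations did not overlap, and CX3CR1-GFP cells exceeded double-negative cells by 1.78 on the log2 scale (adjusted p = 0.00218, lost with sort label 1 or 2B left out, up to 0.0874) and CCR2-RFP cells by 3.03 (adjusted p = 8.32e-06).

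Genes that switch integrins on or tie them to actin gave 11 higher, 3 lower and 8 not passed of 22 in CCR2-RFP against double-negative cells, where 24.8% of all genes were called. Flna, the actin crosslinker filamin A that binds beta chain tails, was 101 ± 42.3 against 9.80 ± 3.25 TPM (adjusted p = 0.000161). Zyxin (Zyx) was 82.6 ± 13.9 against 21.2 ± 2.56 TPM and vinculin (Vcl) 18.6 ± 2.97 against 4.69 ± 1.16 TPM, both focal adhesion proteins (adjusted p = 7.18e-05 and 0.000117). Talin 2 (Tln2) was lower, at 0.219 ± 0.0396 against 2.42 ± 0.331 TPM (adjusted p = 0.000909). Integrin signalling kinases gave 5 higher, 3 lower and 3 not passed of 11. Fgr, a Src family kinase gene of myeloid cells that passed the filter only through CCR2-RFP libraries, was 7.19 ± 0.907 against 0.182 ± 0.0983 TPM (adjusted p = 8.12e-06).

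Pik3cg, a PI3-kinase subunit of myeloid cells, was 11.9 ± 3.93 against 23.1 ± 2.52 TPM (adjusted p = 0.0157, lost without double-negative 2A and with sort label 1 or 2A left out, up to 0.105). Syk, which relays integrin signals, was called between the reporter populations, at 16.7 ± 2.56 TPM in CX3CR1-GFP and 30.4 ± 4.53 TPM in CCR2-RFP cells (adjusted p = 0.00664, lost under 2 of 3 rescalings and with sort label 2A or 2B left out, up to 0.0683). Its difference between CCR2-RFP and double-negative cells did not pass (adjusted p = 0.0597) but did in 3 of 22 alternatives, the replicate block among them, down to 0.0264.

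The list of integrin ligands on cells, which also holds the receptor gene Cd226, gave 2 higher and 2 not passed of 4 tested in CCR2-RFP against double-negative cells. Over all genes tested 14.9% were higher and 9.88% lower. The 2 higher genes were Icam1 and Cd226. Icam1, the ligand of LFA-1 and Mac-1, was 10.0 ± 1.20 against 4.27 ± 1.06 TPM (adjusted p = 0.00734, lost with sort label 2A or 2B left out, up to 0.0565). Cd226, an adhesion receptor that associates with LFA-1 in lymphocytes, was 56.6 ± 4.71 against 1.80 ± 0.955 TPM (adjusted p = 4.96e-06). Vcam1, the ligand of alpha-4 and alpha-9, passed the filter only through CX3CR1-GFP libraries and was 2.73 ± 1.18 TPM in CX3CR1-GFP and 0.241 ± 0.403 TPM in CCR2-RFP cells (adjusted p = 0.00278, lost with sort label 2B left out at 0.0523). Matrix and plasma ligands gave 1 higher, 1 lower and 3 not passed of 5 in CCR2-RFP against double-negative cells. Their median log2 fold change was -0.30, against 0.09 over all genes tested. The higher gene was Fn1, fibronectin, at 1181 ± 165 TPM in CCR2-RFP cells, 60.7 ± 17.3 TPM in double-negative cells and 35.1 ± 29.3 TPM in CX3CR1-GFP cells (adjusted p = 0.000509 for CCR2-RFP against double-negative). Lamc1, a laminin chain, was 2.20 ± 1.01 against 5.63 ± 1.45 TPM (adjusted p = 0.0128, lost without double-negative 2B or CCR2-RFP 2B, and with sort label 1 or 2B left out, up to 0.176). Fibroblast markers (7 genes), a list of matrix producers, summed to 12.7 to 60.4 TPM in CCR2-RFP libraries, 10.4 to 108 TPM in those of double-negative cells and 39.5 to 125 TPM in those of CX3CR1-GFP cells. Their part in the Fn1 values was not tested.

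Among 13 tested genes of hyaluronan handling and CD44 partners, 4 were higher, 3 lower and 6 not passed in CCR2-RFP against double-negative cells. Over all genes tested 14.9% were higher and 9.88% lower. The median log2 fold change of the list was 0.14, against 0.09 over all genes tested. Lyve1, a further hyaluronan receptor gene, lay above Cd44 in every population. It was 501 ± 100 TPM in CCR2-RFP, 805 ± 78.9 TPM in double-negative and 637 ± 232 TPM in CX3CR1-GFP cells. The difference of the first 2 did not pass (adjusted p = 0.0758) but did in 7 of 22 alternatives, the 3 rescalings among them, down to 0.0162. Ezrin (Ezr), which links the tail of CD44 to actin, was 17.5 ± 0.846 against 1.86 ± 0.324 TPM (adjusted p = 4.65e-06). Cd74, which signals together with CD44 and is the MHC class II invariant chain, was 3096 ± 319 against 168 ± 36.6 TPM, in cells sorted by MHC class II. Stabilin 1 (Stab1), a scavenger receptor of the hyaluronan receptor family, was 6.77 ± 4.27 against 77.9 ± 13.5 TPM (adjusted p = 3.06e-05), and the hyaluronidase gene Hyal2 was 0.825 ± 0.489 against 4.07 ± 1.02 TPM (adjusted p = 0.00187). Tetraspanins and other proteins that associate with integrins gave 3 higher, 3 lower and 7 not passed of 13. Their median of 0.05 lay near the 0.09 of all genes tested. Plaur, the urokinase receptor that binds beta-1 and beta-2 integrins, was 22.1 ± 5.11 against 1.90 ± 0.206 TPM (adjusted p = 4.96e-06), and the tetraspanin gene Cd63 was 10.1 ± 5.22 against 86.8 ± 5.40 TPM (adjusted p = 2.59e-05). Between the sessile populations the tetraspanin gene Cd37 was lower, at 17.4 ± 1.68 TPM in CX3CR1-GFP against 35.5 ± 1.65 TPM in double-negative cells (adjusted p = 0.00378, lost with any sort label left out, up to 0.104). Cd9, a further tetraspanin gene, was 6.71 ± 0.830 TPM in CX3CR1-GFP and 3.08 ± 0.577 TPM in double-negative cells (adjusted p = 0.0348), a call lost in 14 of 22 alternatives, the replicate block among them, up to 0.367. Of 5 tested genes of rolling adhesion 2 were higher and 3 did not pass, with Selplg, the P-selectin ligand gene, at 45.9 ± 5.41 against 24.8 ± 3.28 TPM (adjusted p = 0.00237). Cd24a was 82.0 ± 6.20 against 5.79 ± 2.33 TPM (adjusted p = 9.65e-06), and Cd34 was 2.40 ± 2.07 TPM in CX3CR1-GFP against 0.220 ± 0.135 TPM in CCR2-RFP cells (adjusted p = 0.0297, lost in 10 of 21 alternatives, the replicate block among them, up to 0.138).

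Dendritic cells, which carry CD11c and beta-7, could lie in the CD11b gate, and their markers were read beside these genes. The 9 markers summed to 117 to 165 TPM in CCR2-RFP libraries, 38.0 to 74.5 TPM in those of double-negative cells and 22.7 to 29.9 TPM in those of CX3CR1-GFP cells. At least 1 TPM on average was reached by 8 of 9 in CCR2-RFP cells and by 4 of 9 in each other population. Most of the CCR2-RFP sum was Cd209a, at 79.2 to 121 TPM, against 19.6 to 58.5 TPM in double-negative and 5.30 to 7.51 TPM in CX3CR1-GFP libraries. Flt3, a defining receptor, was 2.50, 5.44 and 1.49 TPM in CCR2-RFP libraries and at most 1.08 TPM elsewhere, and Xcr1 was 1.22 to 1.63 TPM there and at most 0.0826 TPM elsewhere. Batf3, Clec9a and Dpp4 were also higher in every CCR2-RFP library than in any other. Zbtb46, a defining transcription factor gene, overlapped among all populations, at 1.57 to 2.50 TPM in CCR2-RFP, 1.95 to 2.98 TPM in double-negative and 1.26 to 2.62 TPM in CX3CR1-GFP libraries. Ccr7 was at most 0.893 TPM in any library. Irf8 ran opposite, at 1.29 to 3.34 TPM in CCR2-RFP against 9.07 to 13.0 TPM in the 6 others. The part of dendritic cells in the Itgax, Itgb7 and Cd226 values was not tested. Of the macrophage and monocyte markers, Adgre1 (F4/80) was 38.6 to 44.7 TPM and Lyz2 1931 to 2429 TPM in CCR2-RFP libraries, against 72.3 to 83.4 and 975 to 1503 TPM in the 6 others.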

How the data were processed

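The authors deposited 1 table of TPM per gene symbol, 1 column per library, which per the submitters' processing notes was made by Salmon 0.11.3 for build mm10, from reads handled by bcl2fastq 2.18 and cutadapt 1.8.3. Per the labels' protocols, 1 ng of RNA went into each library, read as pairs of 75 bases. The sources used here do not state gene summing, annotation or strand.

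With limma 3.58.1 under R 4.3.3 (lmFit, eBayes with trend), log2(TPM + 1) was fitted for the 10136 genes that reached 1 TPM in 3 or more of 9 libraries, with 1 mean per population, two-sided contrasts and Benjamini-Hochberg adjustment over all of them; calls are at adjusted p below 0.05. A zero in TPM can be a failed estimate. Log values of 10136 genes were simulated with 200 of them changed. For CCR2-RFP against double-negative cells, 89% of changes of 2 and 42% of changes of 1 on the log2 scale were recovered. For CX3CR1-GFP against double-negative cells these were 92% and 36%. In the data 2513 genes were called in the first of these comparisons, so recovery there can differ from the simulated one. Libraries were grouped by title.

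Members and lists were chosen with earlier results of these data known. The rule named all 10 members, of each list up to 4 called genes of smallest adjusted p, or without one the gene of highest mean, and for the 3 members of widest range the 3 genes of highest r. Some genes that the rule names are not reported here. The design text has 3 mice sorted into 3 populations, so sort labels were read as animals. Deviations of libraries with the same label correlated at 0.0315 to 0.205 over 9 pairs, and those of other labels at -0.160 to 0.112 over 18 pairs. Alternatives were pseudocounts, filters, rescalings, the block, 2 populations alone, no trend, a fold minimum and leaving out each library. Leaving out each sort label was added after seeing the data. Coordinates are from GENCODE M21 (GRCm38, 1-based).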

Additional observations from a re-analysis of the deposited data

How the results depend on the processing

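The count of integrin and Cd44 genes called in CCR2-RFP against double-negative cells (8) and in CX3CR1-GFP against CCR2-RFP cells (8) stayed within 1.5-fold in the alternatives run. The 1 call between CX3CR1-GFP and double-negative cells, Itgb2, became 0 with no filter on low values, median-of-ratios scaling, quantile normalization, TPM rescaled without mitochondrial, ribosomal and Siglece genes, the 2 populations alone, fitting with no trend, a fold minimum of 2, or sort label 1, 2A or 2B left out in all populations, and 0 to 1 when leaving out a library. With the sort label as a replicate block there was also 1 call, Itga6 (0.0228) in place of Itgb2 (0.0590), and no other call of the 10 genes changed. Itgb1, with -0.07 between these populations, turned to 0.0498 with quantile normalization, 0.0305 with the rescaled TPM, 0.00346 without double-negative 2B, 0.0459 without CX3CR1-GFP 2B and 0.115 with sort label 2B left out; leaving out 1 library gave -0.142 to 0.0459. Of the 78 related genes, 46, 5 and 45 were called in the order of the report; with sort label 1 left out these were 30, 1 and 29, with 2A left out CX3CR1-GFP against double-negative gave 2, with 2B left out the last 2 comparisons gave 1 and 28, and at the fold minimum 3 and 29. Calls kept in all alternatives numbered 27 of 46, 1 of 5 and 19 of 45. Leaving out 1 library gave 4 to 6 calls between CX3CR1-GFP and double-negative cells. Rescaling moved the median log2 fold change of all genes from 0.09 to -0.07 for CCR2-RFP against double-negative and from -0.11 to 0.13 for CX3CR1-GFP against CCR2-RFP cells, and the share of calls that were higher from 60.2% to 44.5% and from 34.1% to 58.7%. Depth is unknown.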

Other observations

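Itgb4, the beta chain that pairs with alpha-6 in epithelia and other laminin-bound cells, did not pass the filter on low values. It was 4.17 TPM in CX3CR1-GFP 1 and 0.114 to 0.217 TPM in the 8 other libraries. Itga6 was 9.25 TPM in that library, between the other 2 of its population. Mesothelial markers (7 genes), a list of an epithelium that lines the peritoneum, summed to 2.41 TPM there and to 7.10 TPM in CX3CR1-GFP 2A, where Itgb4 was 0.124 TPM.

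Itgad and Itgae, the alpha chains of further CD11 and CD103 receptors, were at most 0.0483 and 0.202 TPM in any library. Itga2b and Itgb3, the chains of the platelet fibrinogen receptor, were at most 0.411 and 0.199 TPM.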
